A study of Homo sapiens with 6 samples.

Results

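The genes described here are 35 direct transcriptional targets of p53, among them CDKN1A, MDM2, XPC and TP53I3. They were listed by name, and 33 of them were measured among 18132 genes. The other 2, FDXR and BTG2, were not analysed here. A member was measured if a probe set of the array named its symbol and no other, and its brightest probe set stands for the gene, with the other probe sets given beside it. Sestrins, GADD45 genes, BCL2-family members and death receptors, which p53 also regulates, are not on the list.

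p53 is a transcription factor that is kept at a low level by the ubiquitin ligase MDM2 and is stabilised by DNA damage and other stresses. It binds a response element of paired half-sites near its targets and raises their transcription. Their products halt the cell cycle (p21, encoded by CDKN1A), repair DNA, alter metabolism or promote cell death, and several of them (MDM2, PPM1D, CCNG1) feed back to lower p53. Cells that leave mitosis late or with errors are known to be able to activate p53.

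RNA came from cells labelled as HCT-116, a human colorectal carcinoma line that is known to carry wild-type p53, and described in the labels as high in Aurora-A and PLK-1. One group of 3 arrays had received the vehicle DMSO and the other group of 3 the compound coded AAPK, which the series title presents as inhibiting both Aurora A and PLK-1. The treatment field reads 10 µM and 48 h for all 6 samples, and the 10 µM is read here as the dose of AAPK. The labels do not say whether the 3 samples of a group were separate cultures, so the p-values measure how these samples scatter, and that scatter may be technical.

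The defining markers of the line did not all have a high signal. Of 10 colon epithelial markers, 6 had a signal under the 25th percentile of all genes, and 3 were above the 75th. All 3 probe sets of EPCAM, the epithelial adhesion molecule, had mean log2 signals from 3.36 to 3.42, and the brightest ran from 3.35 to 3.52 over the 6 arrays. CDH1 (E-cadherin) was at 5.11, KRT19 at 4.997, CLDN3 at 4.92, VIL1 (villin) at 4.09 and CDX2 at 5.84. Higher were CDX1 at 7.16, near the middle of all genes, CLDN4 at 8.77, KRT8 at 11.93 and KRT18 at 12.48. Genes looked at after these values were seen were VIM (vimentin), at 12.52, and CDKN2A, which encodes p16 and the MDM2 inhibitor ARF, at 10.77. HCT-116 is generally known as an EPCAM- and E-cadherin-positive line, and these levels go against that, though no marker could be called absent. The name HCT-116 is therefore used here only as the label. The arrays do not show which p53 allele the cells carry, and whether p53 was functional in them was not tested. Of the 10 epithelial markers KRT8 passed the test, with a log2 change of 0.17 (limma adjusted p = 0.0402), and the other 9 did not. No marker of fibroblasts (7 measured), endothelium (6) or blood cells (6 of 7 listed) passed the test by limma; unadjusted p-values under 0.05 numbered 0, 1 and 1.

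Median log2 signal over all probe sets was 6.46 to 6.50 on the 6 arrays. Correlations between arrays ran from 0.9976 to 0.9983 for arrays of one group and from 0.9941 to 0.9953 across groups, over the probe sets that name 1 gene. The 23 background probe sets of the array, which match no human sequence and are binned by base composition, had mean log2 signals from 2.89 to 11.47. All 33 members lay below the highest of these. Since the base composition of each gene's probes is not known here, no member could be called present or absent, and a change may be understated where background adds to the signal. Among 102 control probe sets 3 differed between the groups, all for ribosomal RNA; their part in the results below was not tested.

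Of the 28 listed members with a promoter window in the RefSeq table of GRCh38.p14, which runs from 250 bases before a start to 50 after it, 4 held a p53 response element. The element sought was the p53 consensus half-site of 10 bases, taken as 2 adjoining copies, with up to 3 mismatches over 20 bases and none at the central C and G of either half-site. The consensus is its own reverse complement, so a single scan covers both strands. Such a match was found for 1.37% of all 27305 genes of the table (1.12% of 35116 windows). The stretches of the 3 measured genes, MDM2, AEN and RPS27L, are shown because they are the measured members that carry this element. The capitals mark the match, and each stretch runs from position -120 to -1 relative to the start.

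MDM2, chr12:68808897-68809016, plus strand, 2 mismatches, match at -94 to -75 of an internal start: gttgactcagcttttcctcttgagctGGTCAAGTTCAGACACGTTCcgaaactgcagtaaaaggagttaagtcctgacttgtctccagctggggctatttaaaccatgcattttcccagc
AEN, chr15:88621220-88621339, plus strand, 2 mismatches, match at -34 to -15: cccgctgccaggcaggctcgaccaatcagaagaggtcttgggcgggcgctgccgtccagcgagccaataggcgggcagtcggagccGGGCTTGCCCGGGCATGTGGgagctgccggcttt
RPS27L, chr15:63157478-63157597, minus strand, 3 mismatches, match at -69 to -50: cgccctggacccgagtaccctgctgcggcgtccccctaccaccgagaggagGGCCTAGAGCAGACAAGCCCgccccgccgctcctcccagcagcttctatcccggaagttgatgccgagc

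The match of MDM2 lies before an internal start of the gene, and 2 of its 4 windows hold it; the p53-responsive promoter of MDM2 is known to be the internal one. AEN and the brightest probe set of RPS27L rose under AAPK, as described below, and MDM2 did not pass the test; the difference between these genes was not tested. Among the members that rose, 3 had a window and 2 of them held a match. FUCA1 held none, and CMBL had no window. Of the 6 members that fell, each had a window and 0 held a match, where 1.37% of all genes held one. Of the 17 members with a window that did not pass, MDM2 alone held one, and CDKN1A had none, its known elements lying further upstream than the window reaches. Elements beyond the window or with a spacer between the half-sites were not sought for any member. With so few genes these counts do not separate members that rose from those that fell. A match is a description of the sequence and does not show that p53 was bound there.

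The targets moved in both directions, each by less than 1.5-fold. Of the 33 measured members 4 were higher in AAPK, RPS27L, CMBL, AEN and FUCA1, and 6 were lower, MDM4, XPC, KITLG, IER5, TIGAR and SUSD6, by limma with adjusted p under 0.05 over all genes. That is 12.1% higher and 18.2% lower, where 8.11% and 7.26% of all 18132 genes were called in these directions. Together 30.3% of the members were called against 15.4% of all genes. The changes ran from -0.43 for MDM4 to 0.40 for RPS27L on the log2 scale. Of the members 0 reached 1.5-fold, beside 0.877% of all genes. The median change was 0.00 and its mean -0.02, beside a median of -0.02 over all genes, and 16 members had a positive sign against 17 with a negative one.

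The 2 groups of arrays did not overlap for 14 members (42.4%), where this held for 31.9% of all genes. The 14 are the 10 called members together with ZMAT3, ANKRA2, TP53INP1 and TRIAP1. At 1.2-fold or more were 7 members (21.2%) and 7.49% of all genes. No test of the list was made, since it was chosen with earlier results of these data known.

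**Figure D1:**
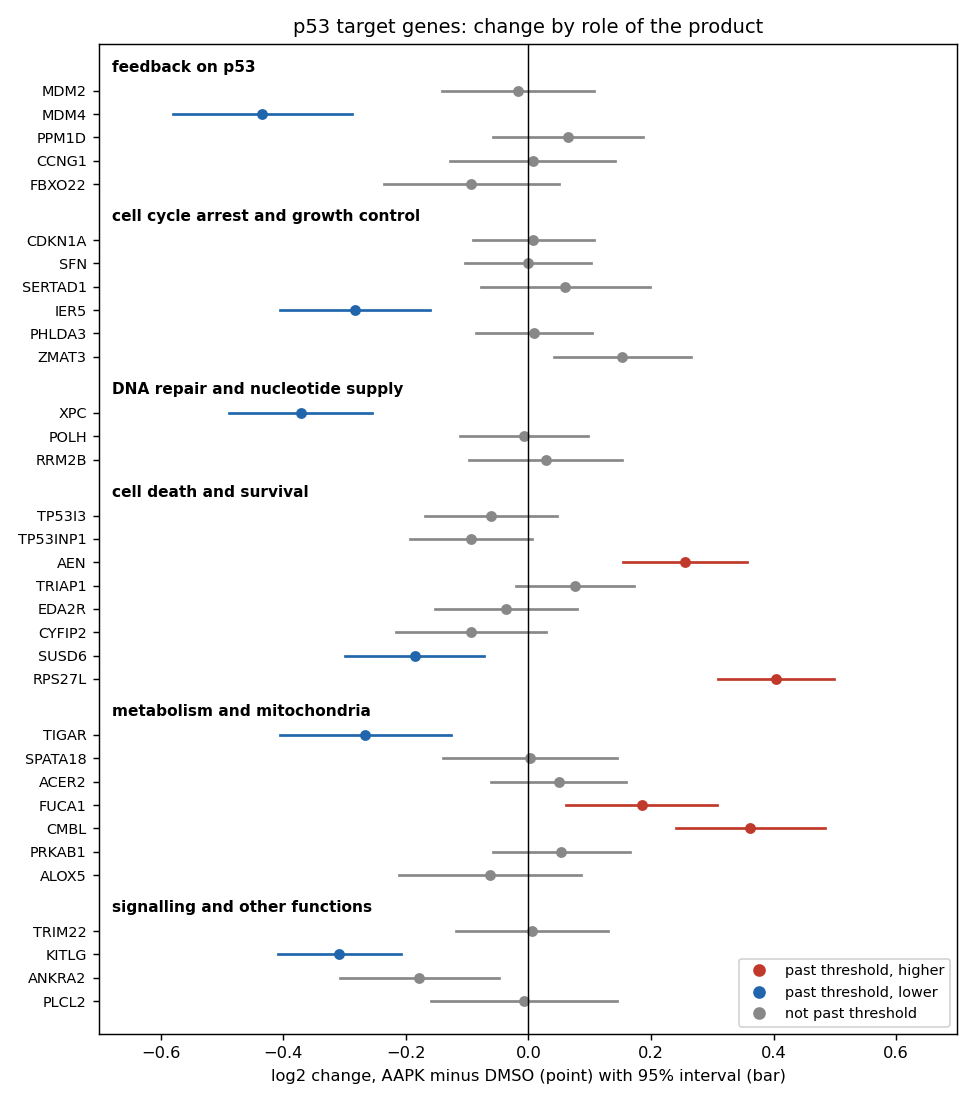
Change of each measured target on its brightest probe set, grouped by the role of the product; the x axis is the log2 difference AAPK minus DMSO, points are estimates from 3 arrays per group and bars are 95% intervals. MDM4 lies lowest at -0.43 and RPS27L highest at 0.40, while CDKN1A, SFN, PHLDA3 and MDM2 lie within 0.02 of 0.

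Among the 5 regulators that feed back on p53, MDM4 fell (20%, beside 7.26% of all genes) and the other 4 did not pass. MDM4 encodes MDMX, a relative of MDM2 that binds p53 and blocks its transactivation. In the vehicle group its log2 signals were 7.54, 7.52 and 7.65, and in the AAPK group 7.09, 7.04 and 7.27. Every AAPK array lay below every DMSO array, and the third AAPK array was the nearest to them. The fall was 1.35-fold (log2 difference -0.43 ± 0.07 SE, 3 arrays a group, limma adjusted p = 0.00154). Of the 6 probe sets of MDM4, 4 passed, at -0.43, -0.32, -0.30 and -0.28, and the remaining 2 were at -0.04 and 0.02. The mean over all 6 was -0.23 (limma adjusted p = 0.00272).

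MDM2, the principal ubiquitin ligase for p53 and itself a target, had log2 signals of 6.63, 6.50 and 6.49 with DMSO and 6.55, 6.58 and 6.44 with AAPK. The groups overlapped, with a change of -0.02 (95% interval -0.14 to 0.11, limma adjusted p = 0.887) whose sign turned with quantile normalisation or median centring. None of its 11 probe sets passed among all 44988 single-gene probe sets, of which 12.9% did; the 10 others ran from -0.23 to 0.05. PPM1D, the phosphatase WIP1 that reverses activating phosphorylation of p53, was at 0.06 (interval -0.06 to 0.19). CCNG1, cyclin G1, was at 0.01 (interval -0.13 to 0.14), with its 4 other probe sets between 0.05 and 0.16. FBXO22, an F-box subunit of a ubiquitin ligase, was at -0.09 (interval -0.24 to 0.05), and all 5 of its probe sets had a negative sign.

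Among genes of cell cycle arrest and growth control, 1 of 6 measured fell (16.7%, beside 7.26% of all genes) and 0 rose (limma; 2 unadjusted p-values were under 0.05). CDKN1A encodes p21, the inhibitor of cyclin-dependent kinases through which p53 arrests the cycle. It read 9.06, 9.11 and 9.05 in log2 signal with vehicle, against 9.10, 9.04 and 9.10 with AAPK. The 2 groups overlapped. The change was 0.01 (95% interval -0.09 to 0.11, limma adjusted p = 0.941), and its other probe set also lay at 0.01. With quantile normalisation the sign of CDKN1A turned, at -0.04 (limma adjusted p = 0.677).

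SFN, the 14-3-3σ protein that holds cyclin B-CDK1 in the cytoplasm, was at 0.00 (interval -0.10 to 0.10). PHLDA3, a PH-domain protein that opposes AKT, was at 0.01 (interval -0.09 to 0.10), with its other 2 probe sets at -0.04 and 0.04. SERTAD1, a regulator of CDK4 and E2F activity, was at 0.06 (interval -0.08 to 0.20). These 3 genes and CDKN1A thus had intervals that stayed inside a change of 0.25 in either direction, given the scatter of these samples, which may be technical.

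IER5, an immediate-early gene whose product binds the phosphatase PP2A, was the member of this group that fell. Its log2 signal was 9.21, 9.18 and 9.22 with DMSO and 8.94, 9.01 and 8.81 with AAPK, with no overlap. The change was -0.28 ± 0.06 SE (limma adjusted p = 0.00610), and the other probe set was at -0.14 and did not pass. ZMAT3, an RNA-binding zinc finger protein, had 9.06, 8.96 and 9.07 with DMSO and 9.24, 9.15 and 9.16 with AAPK. The groups did not overlap, but the change of 0.15 missed the threshold (interval 0.04 to 0.26, limma adjusted p = 0.0685). Its second probe set was at 0.18 and passed among all probe sets (limma adjusted p = 0.0313), and the mean of both passed at 0.17 (limma adjusted p = 0.0138). ZMAT3 also passed with median centring, filters on dim genes or an intensity trend, at limma adjusted p from 0.0209 to 0.0466. In 10 of the 15 alternatives, however, it did not pass. These included quantile normalisation (0.11, limma adjusted p = 0.1957) and the replicate block (limma adjusted p = 0.1015). They also included every fit that left out a single array, at limma adjusted p from 0.0787 to 0.224.

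Of the 3 genes for DNA repair and nucleotide supply, XPC fell (33.3%, beside 7.26% of all genes). XPC encodes the protein that recognises helix-distorting lesions for nucleotide excision repair. The vehicle arrays read 8.71, 8.72 and 8.82 in log2 signal, and those of AAPK 8.37, 8.44 and 8.32. All AAPK arrays were lower, with a gap between the groups wider than the spread within either. The fall was 1.29-fold (log2 change -0.37 ± 0.05 SE, limma adjusted p = 9.77e-04), and the second probe set also passed, at -0.32 (limma adjusted p = 0.00195). POLH, the translesion polymerase eta, was at -0.01 (interval -0.11 to 0.10), with its 3 other probe sets between 0.00 and 0.17. RRM2B, the p53-inducible small subunit of ribonucleotide reductase, was at 0.03 (interval -0.10 to 0.15). Of its 8 other probe sets, 1 passed, at 0.22 on a mean log2 signal of 4.36, and another stood at -0.20.

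**Figure D2:**
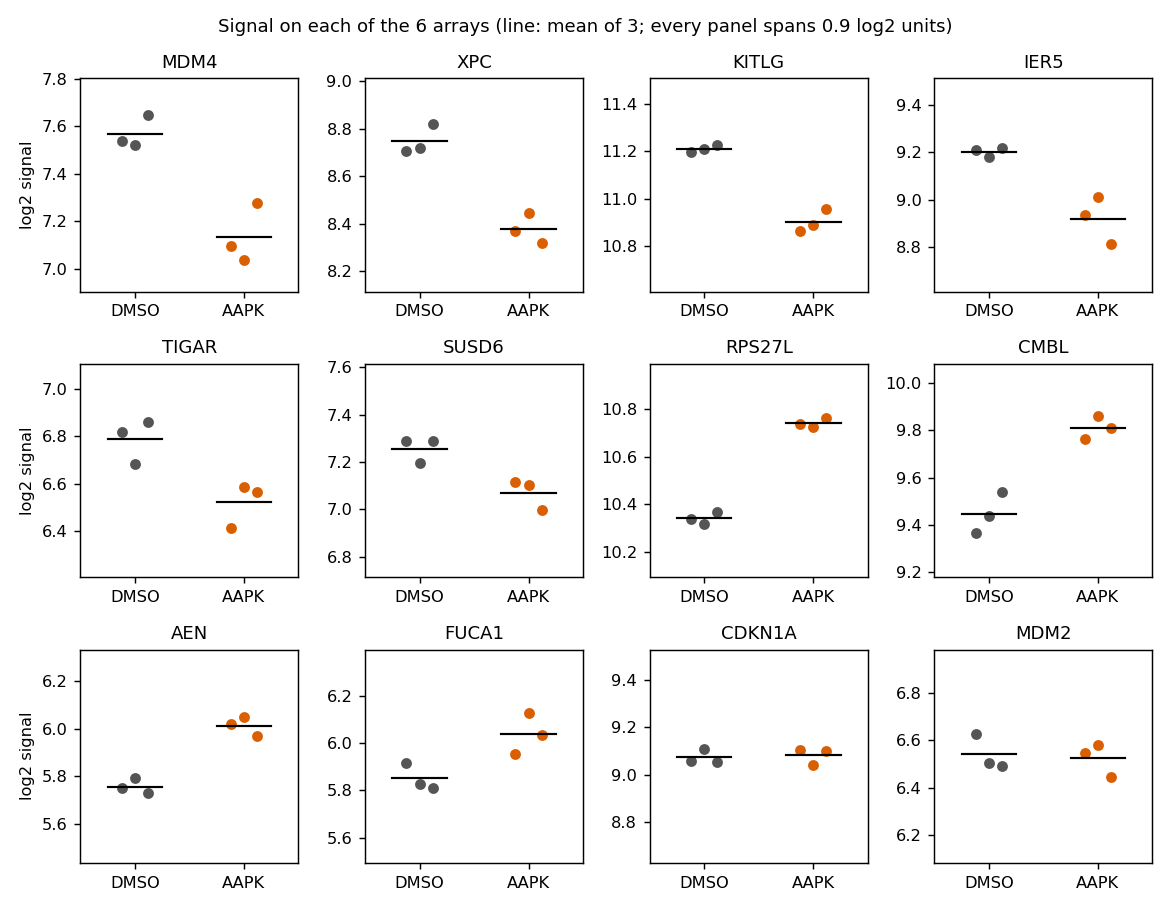
Log2 signal on each array for the 10 members past the threshold and for CDKN1A and MDM2; dots are single arrays (DMSO left, AAPK right), horizontal lines are means of 3, and every y axis spans the same number of log2 units. The groups are separate in the first 10 panels and overlap for CDKN1A and MDM2.

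Among genes of cell death and survival, 2 of 8 were higher and 1 lower (25% and 12.5%, beside 8.11% and 7.26% of all genes). RPS27L, a ribosomal protein closely related to RPS27, had log2 signals of 10.34, 10.32 and 10.37 with DMSO and 10.74, 10.73 and 10.76 with AAPK. The groups lay far apart relative to the spread within either. The rise was 1.32-fold (log2 change 0.40 ± 0.04 SE, limma adjusted p = 1.66e-04). Its other, dimmer probe set had a mean log2 signal of 5.94 and a change of -0.11, short of the threshold. Averaged over both, RPS27L was at 0.15 (limma adjusted p = 0.0334). RPS27L has a close paralog, and whether its probes also read RPS27 was not tested.

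AEN, a nuclease that enhances apoptosis, was at 5.75, 5.79 and 5.73 with DMSO and 6.02, 6.05 and 5.97 with AAPK. The groups did not overlap, and the rise was 0.26 ± 0.05 SE on the log2 scale (1.19-fold, limma adjusted p = 0.00359), on its only probe set. SUSD6, a sushi-domain membrane protein, was at 7.29, 7.19 and 7.29 with DMSO and 7.11, 7.10 and 6.997 with AAPK. It fell by 0.19 (limma adjusted p = 0.0341). The call on SUSD6 was lost without any single array other than DMSO replicate 2, at adjusted p from 0.0557 to 0.123, and with median centring (-0.17, adjusted p = 0.0627).

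The other 5 genes of this group did not pass. TP53I3, an oxidoreductase also called PIG3, was at -0.06 (interval -0.17 to 0.05). EDA2R, a receptor of the TNF receptor superfamily, was at -0.04, and CYFIP2, a subunit of the actin-regulating WAVE complex, at -0.09. TRIAP1, a small mitochondrial protein that counters apoptosis, was at 0.08 (interval -0.02 to 0.17), its groups not overlapping. TP53INP1, a stress-induced nuclear and autophagy protein, was at -0.09 (interval -0.19 to 0.01) on its brighter probe set. Its dimmer one, at a mean log2 signal of 5.66, was higher by 0.28 (limma adjusted p = 0.0375 among all probe sets). The probe sets of TP53INP1 thus differed in sign.

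Among metabolic and mitochondrial genes, 2 of 7 measured were higher and 1 lower (28.6% and 14.3%, beside 8.11% and 7.26% of all genes). CMBL, a cytosolic hydrolase, had log2 signals of 9.37, 9.44 and 9.54 with DMSO and 9.76, 9.86 and 9.81 with AAPK. The lowest AAPK array was well above the highest DMSO array. The rise was 1.29-fold (log2 change 0.36 ± 0.05 SE, limma adjusted p = 0.00148), and the dimmer probe set was at 0.15 and did not pass. FUCA1, the lysosomal α-fucosidase, was at 5.92, 5.83 and 5.81 with DMSO and 5.95, 6.12 and 6.03 with AAPK. The first array of each group almost met. Its change of 0.18 passed narrowly (limma adjusted p = 0.0494). That call on FUCA1 was lost without any single array other than AAPK replicate 1, at adjusted p from 0.0583 to 0.170, and when its 3 probe sets were averaged (0.11, adjusted p = 0.0566).

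TIGAR, a fructose-2,6-bisphosphatase that lowers glycolytic flux, was the metabolic target that fell. It was at 6.82, 6.68 and 6.86 with DMSO and 6.41, 6.58 and 6.57 with AAPK, without overlap. The change was -0.27 ± 0.06 SE (limma adjusted p = 0.0164), but the other probe set was at -0.01. For the mean of both the change was -0.14 and did not pass (limma adjusted p = 0.0684). Without DMSO replicate 1, DMSO replicate 3 or AAPK replicate 1, TIGAR was at -0.25, -0.23 and -0.21 and did not pass either (limma adjusted p = 0.0633, 0.0591 and 0.0658).

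The other 4 metabolic members did not pass on their brightest probe sets. SPATA18, which acts in mitochondrial quality control, was at 0.00 and had the lowest mean signal rank of all members, at the 8th percentile of genes. ACER2, a Golgi ceramidase, was at 0.05 (interval -0.06 to 0.16). Its dimmest probe set, at a mean log2 signal of 3.94, was higher by 0.34 (limma adjusted p = 0.00945 among all probe sets). PRKAB1, the β1 subunit of AMP-activated protein kinase, was at 0.05, and ALOX5, 5-lipoxygenase, at -0.06.

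Of the 4 members with signalling and other functions, 1 fell (25%, beside 7.26% of all genes). This was KITLG, on 1 of its probe sets. KITLG encodes stem cell factor, the ligand of the receptor KIT. Its brightest probe set, at 11.20, 11.21 and 11.23 with DMSO and 10.86, 10.89 and 10.96 with AAPK, changed by -0.31 ± 0.05 SE (1.24-fold lower, limma adjusted p = 0.00120). The 3 other KITLG probe sets had mean log2 signals from 6.03 to 6.97 and changes of 0.04, 0.07 and 0.10, none of which passed. The mean of all 4 was -0.02 (limma adjusted p = 0.737). The fall therefore rests on 1 of 4 probe sets.

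ANKRA2, an ankyrin-repeat protein that binds histone deacetylases, was at 5.29, 5.26 and 5.37 with DMSO and 5.04, 5.11 and 5.24 with AAPK. The change of -0.18 missed the threshold (interval -0.31 to -0.05, limma adjusted p = 0.0685) and passed without AAPK replicate 3 (-0.23, limma adjusted p = 0.0249); its second probe set was at -0.17. TRIM22, an interferon-inducible TRIM protein, was at 0.01 with 5 other probe sets between -0.08 and -0.02. PLCL2, a phospholipase C-like protein without catalytic activity, was at -0.01 (interval -0.16 to 0.14).

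For the 23 members that did not pass, the intervals give a range for the change in signal, set by the scatter of these samples. In 21 of them the 95% interval lay within 0.25 log2 units of 0 on either side, a 1.19-fold change; ZMAT3 and ANKRA2 were the exceptions. The highest upper bound was 0.26, for ZMAT3, and the lowest lower bound -0.31, for ANKRA2. These bounds hold for the brightest probe set of each gene and for values normalised between arrays. Dimmer probe sets of ACER2 and TP53INP1 were higher by 0.34 and 0.28. The scatter may be technical and background may understate a change, so the bounds need not hold for the RNA of the cells.

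The 33 members had 102 probe sets, and 26 genes had more than 1. Fitted with all 44988 single-gene probe sets, 7 of the 102 were higher and 10 lower, 16.7% together, beside 12.9% of all those probe sets. Among the 69 probe sets other than the brightest, 4 were lower, 3 of MDM4 and 1 of XPC, and 4 were higher, 1 each of ZMAT3, RRM2B, TP53INP1 and ACER2. MDM4 and XPC thus fell on more than 1 probe set, whereas IER5, TIGAR, KITLG, RPS27L and CMBL passed on the brightest alone. FUCA1 did not pass in this wider fit (limma adjusted p = 0.0653).

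**Figure D3:**
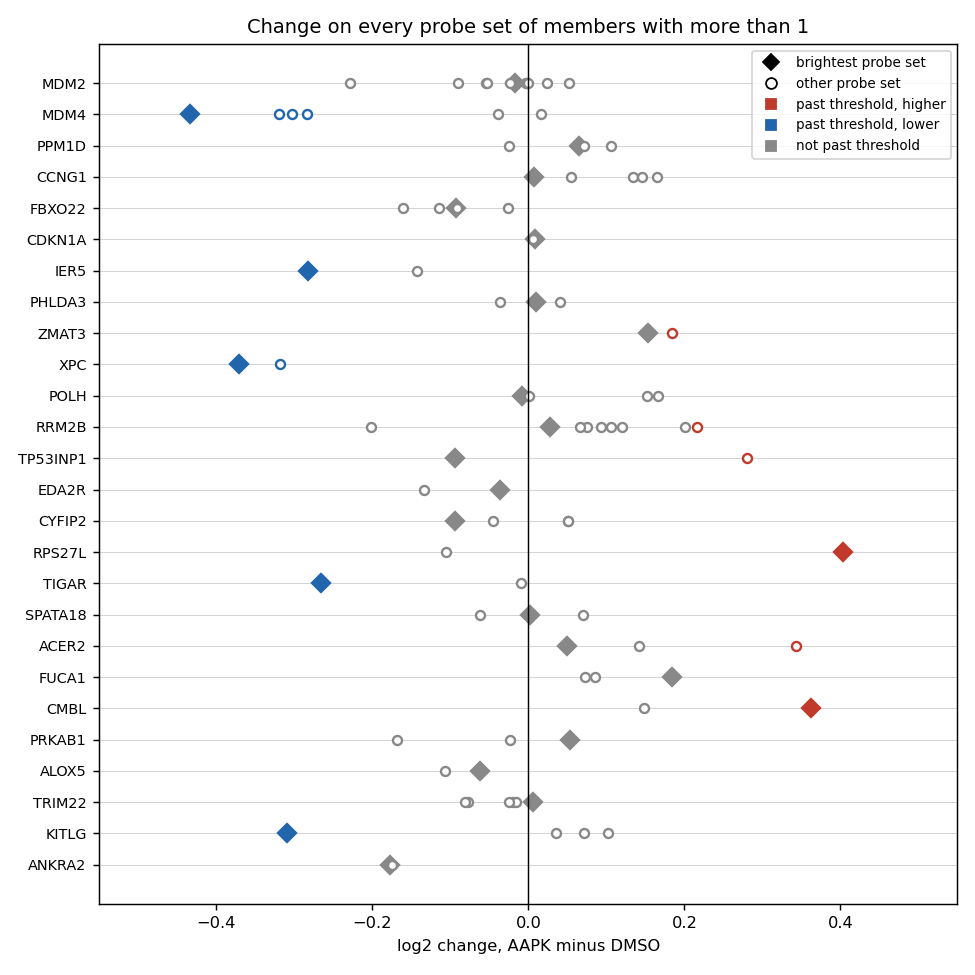
Change on every probe set of the 26 members with more than 1; the x axis is the log2 difference AAPK minus DMSO, diamonds are the brightest probe set and circles the others, coloured by the fit of all 44988 single-gene probe sets. MDM4 has 4 probe sets past the threshold, while the brightest of KITLG (-0.31) and RPS27L (0.40) stand apart from their other probe sets.

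Genes that act on or with p53 also moved in both directions. Of 35 genes for p53 and the proteins that modify, read or bind it, 31 were measured. Of these, 4 rose (12.9%, beside 8.11% of all genes) and 6 fell (19.4%, beside 7.26%), and their median log2 change was 0.00. Their median signal lay at the 73.2 percentile of all genes, and the shares were not compared with those of genes of like signal. The largest changes past the threshold were falls of TP53BP2 and SIRT1. TP53BP2, the p53-binding protein ASPP2, went from 8.41 ± 0.04 to 8.04 ± 0.10 (SD, n = 3; log2 change -0.38, limma adjusted p = 0.00119), and its 2 other probe sets were at -0.28 and -0.33. SIRT1, a deacetylase that acts on p53, went from 7.86 ± 0.08 to 7.52 ± 0.07 (log2 change -0.34, limma adjusted p = 0.00222). Named after their values were seen, the acetyltransferases EP300 and CREBBP were at -0.30 and -0.29, and USP7, the deubiquitinase of MDM2 and p53, was at 0.32 (limma adjusted p = 0.00361, 0.00410 and 5.60e-04). The 4 other probe sets of CREBBP were at -0.45, which passed, -0.17, -0.05 and -0.03, which did not. The 4 of USP7 were at 0.24, which passed, 0.23, 0.20 and 0.05, which did not.

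Among p53 targets outside the 35, larger falls were found. Of 60 listed, 59 were measured, of which 6 rose (10.2%, beside 8.11% of all genes) and 16 fell (27.1%, beside 7.26%). The median log2 change was -0.04 and the mean -0.14. The median signal of these targets lay at the 68.5 percentile of all genes, and here too genes of like signal were not compared. GADD45A, whose product acts in growth arrest and DNA repair, went from 10.21 ± 0.05 to 8.72 ± 0.13 (log2 change -1.49, limma adjusted p = 5.91e-07). RNF144B, a ubiquitin ligase induced by p53, went from 8.73 ± 0.13 to 7.32 ± 0.09 (log2 change -1.41, limma adjusted p = 1.10e-06), with its 2 other probe sets at -0.08 and -0.28. Named after their values were seen, SESN2 (sestrin 2) was at -1.33 and PMAIP1, the BH3-only protein NOXA, at -1.29. Among the 6 that rose, also named afterwards, PERP had the largest change, at 0.26, and SESN1 (sestrin 1) was at 0.18. At or below -0.10 lay 21.2% of the members, 32.2% of the other targets and 18.5% of all genes, and at or below -0.60 lay 0%, 6.78% and 0.56%. GADD45A, SESN2 and PMAIP1 belong to families that were kept off the list of members. Both lists were also chosen with earlier results of these data known. The contrast at -0.60 thus follows in part from how the lists were drawn up, and the difference between them was not tested.

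**Figure D4:**
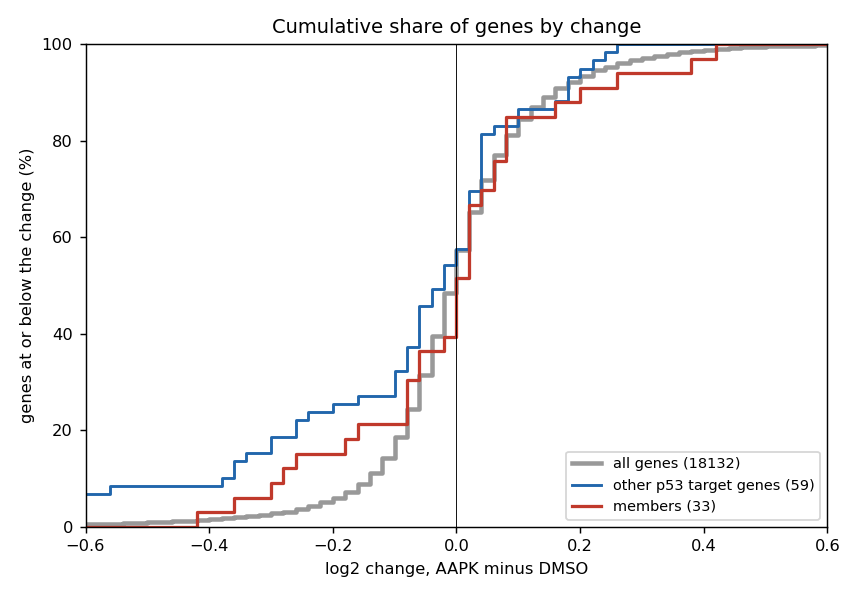
Cumulative share of genes (y axis, percent) at or below each log2 change AAPK minus DMSO (x axis) for the 33 members, 59 other p53 targets and all 18132 genes; changes beyond 0.60 in either direction lie off the axis. The other targets reach 6.78% at -0.60, where the members are at 0%. They include GADD45, sestrin and BCL2-family genes, which were kept off the list of members.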

How the data were processed

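RNA of 6 samples, 3 DMSO and 3 AAPK, was measured on Affymetrix PrimeView arrays. The authors deposited 1 normalised value per probe set and array. The scale is not stated, and the deposited values were read as log2 from their range; the normalisation method is not given in the sources used here. Of 49395 probe sets, 102 were controls, 44988 named 1 gene, 1832 several and 2473 none, by the platform annotation. The probe set with the highest mean over all arrays stood for each of 18132 genes; 33 of 33 measured members matched RefSeq by identifier and symbol.

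Groups were compared with limma 3.58.1 in R 4.3.3 (lmFit, eBayes; two-sided), with Benjamini-Hochberg adjustment over all genes and a threshold of 0.05. The fit was tested on simulated data. Each single-gene probe set was also fitted. The number of arrays limits the precision, and the labels give no batch. Alternatives were quantile normalisation, median centring, filters on dim genes, other choices of probe set, an intensity trend, a replicate block and leaving out each array. The members and gene lists were chosen with earlier results of these data known. All measured members are named, with values per array for those past the threshold and for CDKN1A, MDM2 and MDM4 (also, after their values were seen, for ZMAT3 and ANKRA2); of other lists, the 2 genes past the threshold with the largest change are named, and others where stated.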

Additional observations from a re-analysis of the deposited data

Results flagged for a closer look

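Among the control probe sets, which the comparisons did not use, 3 for ribosomal RNA differed between the groups when fitted with all 49395 probe sets. For large-subunit rRNA the AAPK arrays lay above the DMSO arrays by 0.56 log2 units at the 5′ probe set (0.5555, limma adjusted p = 5.49e-04) and by 0.51 at the middle one (0.5132, limma adjusted p = 2.52e-04). Small-subunit rRNA was lower at its 3′ probe set by -0.41 (-0.4104, limma adjusted p = 0.00228). The other probe sets of these RNAs did not pass. The 3′ one of large-subunit rRNA was at -0.13, and the 5′ and middle ones of small-subunit rRNA were both at -0.06. The 23 background probe sets changed by at most 0.06.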

How the results depend on the processing

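Of the 10 members past the threshold, MDM4, XPC, IER5, AEN, RPS27L and CMBL passed in every alternative in which they were fitted. For these genes the probe set of largest SD was the brightest one, so that choice left their estimates unchanged. SUSD6, TIGAR, FUCA1 and KITLG were lost in at least 1 of 15. With the probe set of largest SD, KITLG was at 0.10 and TP53INP1 at 0.28, both reversed; each is another, dimmer probe set of the gene. With all probe sets fitted, 5824 of 44988 passed. Median centring moved the members' median from -0.0009 to 0.0190. Of the 59 other p53 targets, 6 were higher in the main fit, 2 with the mean of the gene's probe sets and 3 with the replicate block. Of the 31 genes around p53, 4 were higher in the main fit, 7 when genes dimmer than the median were dropped and 2 with the mean of probe sets. Without 1 array, 1921 to 2450 genes passed, 3 to 4 members were higher and 4 to 6 lower, their median was -0.02 to 0.00, and 2 to 4 other p53 targets were higher; that count was 2 without DMSO replicate 1 or AAPK replicate 2 and 3 without DMSO replicate 3. The cause of these shifts was not tested. The number of all genes passing also moved, from 2788 in the main fit to 2900 with the mean of probe sets. It was 3037 without genes dimmer than the median. Shares of all genes by direction are not given for these settings, so these counts are not read as results about the lists. The replicate block left 2099 genes past the threshold, with 3 members higher and 5 lower. Same-numbered arrays did not deviate together (r = -0.02, -0.23 and -0.05), and 0 of 6 correlated best with its own number, so the numbers were not taken as pairs. Signals near background limit what dim probe sets can show.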
